A study of Mus musculus with 18 samples.

Results

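The genotype by ligation interaction is, for each gene, the change from the intact to the ligated limb in muscle-specific Bmal1 knockout mice (BKO) minus the same change in control mice (WT). It was computed on the log2(normalized count + 1) scale for every gene whose normalized count averaged 10 or more across the 18 libraries, which left 12262 of the 20922 genes in the table. A positive value means that ligation raised the gene more, or lowered it less, in BKO than in WT, and a negative value means the reverse. No measured difference between groups entered the choice of genes. At a Benjamini-Hochberg adjusted p under 0.05 in limma, the interaction passed for 737 genes, 373 of them positive and 364 negative.

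The libraries were made from the tibialis anterior, a fast muscle of the lower leg. All mice carried floxed Bmal1 alleles (Bmal1fx/fx) and were bred with an ACTA-rtTA-TRE-Cre line, in which doxycycline switches on Cre from a skeletal actin promoter. Doxycycline was given by gavage to knockouts and controls alike, and the femoral artery of 1 hindlimb was tied a week after the last dose. Muscles of the ligated limb and of the intact limb on the other side were taken on day 36. The 4 groups were WT intact (n = 5), WT ligated (n = 4), BKO intact (n = 5) and BKO ligated (n = 4). The labels give the Cre genotype as +/+ for controls and -/- for knockouts, the reverse of what the group names say. WT and BKO therefore mean the libraries that carry those group names. The sources used here give neither the age of the mice nor the time of day of collection. The promoter drives Cre in muscle fibres and not in vessels, immune cells or stroma. Muscle from a ligated and an intact limb can differ in its mix of cells, and in bulk RNA fewer cells of a type and less RNA per cell cannot be told apart.

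BMAL1, encoded by Arntl, pairs with CLOCK and binds E-box motifs in the promoters of its targets, among them the Per, Cry and Nr1d genes whose products feed back on the clock. In skeletal muscle the clock sets daily rhythms of glucose, fatty acid and amino acid use. Ligation of the femoral artery cuts blood supply to the lower leg, damages fibres and is followed by regeneration, new vessels and a slow recovery of perfusion, and is used as a model of peripheral artery disease. An interaction asks whether muscle without fibre BMAL1 answers that injury in another way than control muscle does.

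Depth was 14.1 to 25.6 M reads per library. The mitochondrial 16S ribosomal RNA mt-Rnr2 took 31.9% to 36.1% of reads in intact limbs, 38.1% to 45.3% in WT ligated and 40.9% to 55.5% in BKO ligated limbs, with 51.9% and 55.5% in BKO ligated libraries 4 and 5. In intact limbs the BKO share was higher than the WT share by 2.51 percentage points (exact two-sided permutation p = 0.0159), and in ligated limbs the difference of 6.79 points had an exact p of 0.171. Without those 2 libraries (BKO ligated 4 and 5) the interaction passed for 269 genes, 2.19% of those tested, and 235 of the 737 genes passed again. The sign of the interaction was the same without them for all 737. Those genes were picked by the fit to all 18 libraries, so the shared sign is no separate evidence. The 2 libraries were picked out after the data were seen, and their part in the results was not tested, so counts without them stand beside most gene groups below. All 8 skeletal muscle markers on the list used to check the tissue were abundant, with a summed normalized count of at least 1630500 in every library. Markers of B and plasma cells summed to 1786 to 3453 in BKO intact limbs, against 285 to 474 in WT intact, 152 to 262 in WT ligated and 489 to 898 in BKO ligated limbs. The MHC class II sum ran from 394 to 1602 in BKO intact limbs, highest in library 5, and from 538 to 700.3 in WT intact limbs. The part of these cells in the results was not tested.

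Interaction genes made up 6.01% of the genes tested, 3.04% positive and 2.97% negative, and these shares are the background for each gene group below. By comparison, ligation against intact passed for 39.8% of genes in WT (18.7% higher, 21.1% lower) and for 47.2% in BKO (22.1% higher, 25.1% lower). BKO against WT passed for 18.3% in intact limbs (8.56% higher, 9.75% lower) and for 8.84% in ligated limbs (4.16% higher, 4.68% lower). These comparisons share libraries with each other and with the interaction. The median interaction over all genes tested was -0.01, and the median size among the 737 was 0.73 on the log2 scale. At least a 2-fold difference between the 2 ligation effects was seen in 115 positive and 55 negative genes.

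Most interaction genes passed the test of ligation in a single genotype. Missing the threshold in the other genotype does not show that the gene was unchanged there. Among negative genes, 175 fell with ligation in BKO and passed no test in WT, and 95 rose in WT and passed no test in BKO. Among positive genes, 164 rose in BKO and passed no test in WT, and 117 fell in WT and passed no test in BKO. In 63 genes ligation passed in opposite directions, with 36 that fell in WT and rose in BKO and 27 that rose in WT and fell in BKO. Read by limb, the larger groups were those in which the genotypes differed in the intact limb. Of the positive genes, 237 were lower in BKO than in WT in intact limbs and passed no test between genotypes in ligated limbs. Of the negative genes, 194 were higher in BKO in intact limbs and passed no test in ligated limbs. Fewer genes passed between genotypes in the ligated limb alone, with 75 positive genes higher and 108 negative genes lower in BKO than in WT there. Over all genes, BKO against WT also passed less often in ligated limbs (8.84%, groups of 4) than in intact limbs (18.3%, groups of 5).

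**Figure D1:**
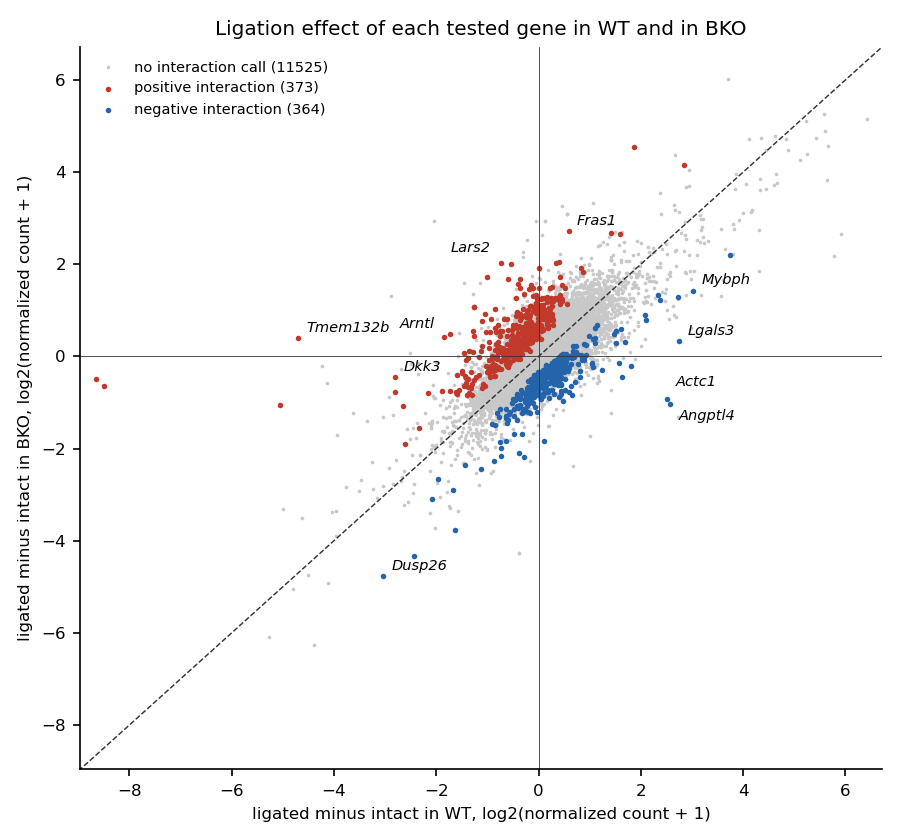
Each point is 1 of the 12262 genes tested, placed by its ligated minus intact difference in WT (x axis) and in BKO (y axis), both on the log2(normalized count + 1) scale. The dashed line marks equal effects; the 373 positive interaction genes lie above it and the 364 negative ones below it, with Angptl4 and Actc1 far below and Tmem132b and Lars2 far above.

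Arntl (chr7:113207465-113314126, GRCm38) itself had a positive interaction. WT libraries held 41.3, 66.3, 47.3, 68.4 and 58.2 normalized counts in intact limbs and 17, 12.2, 18.3 and 17.3 in ligated limbs, listed here and below in order of library number. BKO libraries held 46.2, 49.5, 50.2, 61.1 and 42.4 in intact and 82, 63.8, 69.5 and 64.7 in ligated limbs. The WT ligated values lay below those of all other libraries, and the BKO ligated values lay above all BKO intact values and overlapped those of WT intact limbs. Ligation changed Arntl by -1.73 ± 0.18 in WT and by 0.48 ± 0.18 in BKO (log2 ± SE), an interaction of 2.21 ± 0.25 (limma adjusted p = 8.74e-05). The count covers the whole gene, including exons outside a deleted part and cells in which Cre does not act, so its level does not check the deletion. In intact limbs BKO minus WT was -0.16 ± 0.17 (adjusted p = 0.584).

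Genes that BMAL1 and CLOCK activate gave a check of the group names. Of 15 such genes, 13 were lower in BKO than in WT in intact limbs and 11 in ligated limbs, and none was higher. For the interaction, Per1 and Bhlhe41 were positive, none was negative, and the median was 0.27. The same counts were found without the 2 libraries richest in mt-Rnr2. Per1, a repressor arm of the clock and also an early response gene, held 570.4, 589.8, 552, 541 and 488 in WT intact and 442, 632, 546 and 519 in WT ligated limbs. In BKO it held 117, 109, 186, 152 and 115 in intact and 343, 298, 301 and 261 in ligated limbs, so that ligation separated the BKO libraries without overlap and left the WT ranges overlapping. The interaction of Per1 was 1.21 ± 0.19 (adjusted p = 0.00198), with a ligated minus intact difference of -0.04 ± 0.14 in WT and 1.16 ± 0.14 in BKO. Bhlhe41 (DEC2), a repressor of the same E-boxes, went another way. It held 702, 935, 1159, 917 and 890.1 in WT intact and 364, 452, 330.0 and 492 in WT ligated limbs, and 398, 399, 292, 342 and 361 in BKO intact and 374, 411, 294 and 344 in BKO ligated limbs. It fell with ligation in WT by 1.17 without overlap and stood at the ligated WT level in both kinds of BKO limb, with an interaction of 1.16 ± 0.20 (adjusted p = 0.00273). Nr1d1 (REV-ERB alpha) had 0.54 ± 0.22 (adjusted p = 0.145) and Ciart 0.94 ± 0.37 (adjusted p = 0.134), neither of which passed. Of 6 genes that REV-ERB represses, Arntl was the member that passed, with Nfil3 at 0.59 ± 0.20 and Rora at 0.32 ± 0.13.

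The promoter windows of the 3 clock genes with an interaction are shown with the letters of clock-related motifs that a search found in them. Each runs from 250 bases before to 50 after a transcription start (RefSeq, GRCm38.p6, 5′ to 3′ on the gene's strand). RefSeq has a second window for Arntl and for Per1, in which none of the motifs searched was found. Capitals mark the E-box CACGTG and the nuclear receptor motif AGGTCA, searched on both strands, so that TGACCT is the latter on the other strand.
Arntl, chr7:113207261-113207560, plus strand: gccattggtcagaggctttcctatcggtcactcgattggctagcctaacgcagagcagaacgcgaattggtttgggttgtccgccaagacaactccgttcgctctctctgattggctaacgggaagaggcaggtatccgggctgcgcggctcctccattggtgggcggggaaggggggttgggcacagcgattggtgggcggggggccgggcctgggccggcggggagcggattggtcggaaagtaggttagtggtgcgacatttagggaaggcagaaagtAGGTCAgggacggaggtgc
Per1, chr11:69098699-69098998, plus strand: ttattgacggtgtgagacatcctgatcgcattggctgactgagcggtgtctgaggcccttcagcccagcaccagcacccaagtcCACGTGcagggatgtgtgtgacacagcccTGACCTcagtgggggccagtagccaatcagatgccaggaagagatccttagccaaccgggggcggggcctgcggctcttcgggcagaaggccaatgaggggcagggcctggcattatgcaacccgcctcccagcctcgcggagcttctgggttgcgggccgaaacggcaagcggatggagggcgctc
Bhlhe41, chr6:145865371-145865670, minus strand: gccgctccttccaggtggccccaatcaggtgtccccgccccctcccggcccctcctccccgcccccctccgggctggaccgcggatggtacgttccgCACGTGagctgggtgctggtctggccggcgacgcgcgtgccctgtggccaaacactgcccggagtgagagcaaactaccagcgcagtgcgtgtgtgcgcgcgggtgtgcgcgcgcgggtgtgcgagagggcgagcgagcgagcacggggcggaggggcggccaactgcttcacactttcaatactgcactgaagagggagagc
The E-box was found in the windows of 11.9% of the 9173 tested genes that have one, in 11.8% of 272 positive and in 9.85% of 274 negative interaction genes. The D-box TTATGTAA, bound by DBP, TEF and NFIL3, was found in 0.61% (56 genes), 1.47% (4 genes) and 0.365% (1 gene). AGGTCA, to which REV-ERB, ROR and, in extended or paired form, ERR and PPAR receptors bind, was found in 14.9% of all, 12.9% of positive and 22.3% of negative genes. These shares describe letters in the windows and carry no test.

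The genes named singly are the 15 with the largest positive and the 15 with the largest negative interaction among those that passed in every fit with 1 library left out and reached a mean of 50 in at least 1 group, with predicted genes set aside. On the negative side Angptl4 and Actc1 came first, and both rose with ligation in WT and fell in BKO, where they were high in intact limbs. Angptl4 (chr17:33773750-33781830), a secreted inhibitor of lipoprotein lipase, held 7.74, 5.92, 4.93, 3.85 and 7.02 in WT intact and 37.3, 43.4, 53.1 and 27.2 in WT ligated limbs. It held 80.9, 72.7, 47.3, 50.2 and 148 in BKO intact and 19, 63.8, 29.6 and 42.6 in BKO ligated limbs. Every BKO intact value lay above every WT intact value, and the WT limbs did not overlap while the BKO limbs did. Its interaction was -3.60 ± 0.48 (adjusted p = 0.000479). Actc1 (chr2:114047282-114053548), the cardiac actin that skeletal fibres make while they develop or regenerate, held 367, 147, 149, 277 and 195 in WT intact and 1557, 807, 1131 and 1542 in WT ligated limbs. In BKO it held 2268, 2902, 3005, 4629 and 2419.8 in intact and 2682, 1523, 736 and 1950.3 in ligated limbs. The BKO intact libraries were above all WT libraries of either limb, and the interaction was -3.43 ± 0.45 (adjusted p = 0.000479). Mybph, a myosin-binding protein, rose in both genotypes, by 3.03 in WT and 1.43 in BKO, from a BKO intact mean of 171 against 39.5 in WT intact limbs. Lgals3 (galectin-3), Fgf11, Sytl2 and Tspo, the translocator protein of the outer mitochondrial membrane, were also higher in BKO than in WT in intact limbs, with interactions of -2.41 ± 0.53, -1.54 ± 0.38, -1.36 ± 0.31 and -1.44 ± 0.28.

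A further group of large negative interactions fell with ligation more in BKO. Dusp26, a dual-specificity phosphatase, held 399, 336, 323, 362 and 409 in WT intact and 47.8, 52.9, 40.9 and 34.6 in WT ligated limbs, and 331, 498, 409, 563 and 371 in BKO intact and 13, 27, 9.19 and 14.2 in BKO ligated limbs. It fell by 3.04 in WT and fell by 4.77 in BKO, and every BKO ligated value lay below every WT ligated value (interaction -1.73 ± 0.30, adjusted p = 0.00342). Amy1 (amylase 1) and Slc25a34, of the mitochondrial carrier family, had interactions of -1.40 ± 0.21 and -1.72 ± 0.39, and Lrtm1 had -1.37 ± 0.19. Trarg1, a regulator of GLUT4 trafficking, and Agpat2, which makes phosphatidic acid, rose in both genotypes and rose less in BKO, with -1.54 ± 0.37 and -1.31 ± 0.33. Col23a1, a transmembrane collagen, rose in WT by 1.58 and passed no test in BKO. Enho, which encodes the secreted peptide adropin, fell in BKO by 0.87 and passed no test in WT.

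On the positive side the largest was that of Tmem132b (chr5:125531774-125792583), at 5.10 ± 0.92 (adjusted p = 0.00428). It held 115, 39.1, 38.4, 63.6 and 123 in WT intact limbs and 0, 2.71, 0.871 and 5.76 in WT ligated limbs, against 9.78, 1.05, 3.94, 0.837 and 3.39 in BKO intact and 15, 1.23, 2.04 and 5.32 in BKO ligated limbs. High values were found in the WT intact libraries alone. Dkk3, a secreted protein of the dickkopf family, was likewise highest in WT intact limbs, with 67.1, 148, 117, 134 and 147 in WT intact, 8.1, 21.7, 15.7 and 23.1 in WT ligated, 26.7, 11.6, 15.8, 7.53 and 13.6 in BKO intact and 11, 9.82, 11.2 and 7.98 in BKO ligated limbs. All WT intact values of Dkk3 lay above those of the other 3 groups, and its interaction was 2.37 ± 0.46 (adjusted p = 0.00637). Atp13a5, a P5-type ATPase, followed with 2.04 ± 0.45.

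Other positive genes rose with ligation in BKO from a low intact level. Car3, carbonic anhydrase III abundant in muscle fibres, held 18098, 18759, 14907, 16295 and 12769.8 in WT intact and 24249, 17453, 21387 and 22086 in WT ligated limbs. In BKO it held 1323, 1231, 1408, 1517 and 1649 in intact and 6564, 5743, 6618 and 4904 in ligated limbs. The BKO libraries lay below all WT libraries in both limbs. On the log2 scale the rise with ligation was 2.06 in BKO against 0.40 in WT (interaction 1.66 ± 0.17, adjusted p = 4.96e-05). That scale measures the rise relative to the intact level, which was far lower in BKO. Ces1d, a carboxylesterase, had a like pattern, with means of 21.2 in BKO intact and 100.4 in BKO ligated limbs against 232 and 230.3 in WT, and an interaction of 1.91 ± 0.45. Fras1, a basement membrane protein, Map1a, a microtubule-binding protein, and Map3k7cl rose in BKO by 2.71, 1.48 and 1.69 and passed no test in WT. Fnbp1l, an F-BAR protein, passed in opposite directions, at -0.94 in WT and 0.80 in BKO. Hectd4, of the HECT ubiquitin ligase family, had 1.72 ± 0.40.

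**Figure D2:**
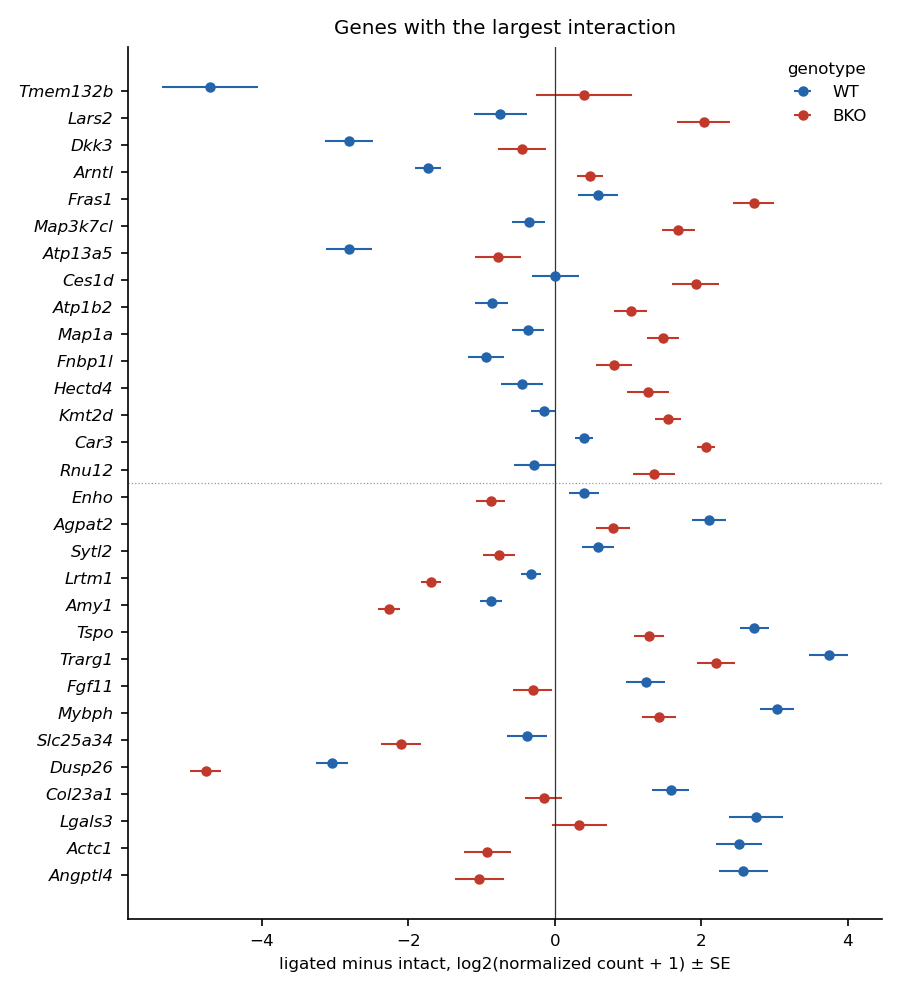
The ligated minus intact difference (x axis, log2(normalized count + 1), point and SE from limma) in WT and in BKO for the 15 genes with the largest positive and the 15 with the largest negative interaction, separated by the dotted line. Angptl4 and Actc1 rise in WT and fall in BKO, while Dusp26 falls in both and further in BKO.

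**Figure D3:**
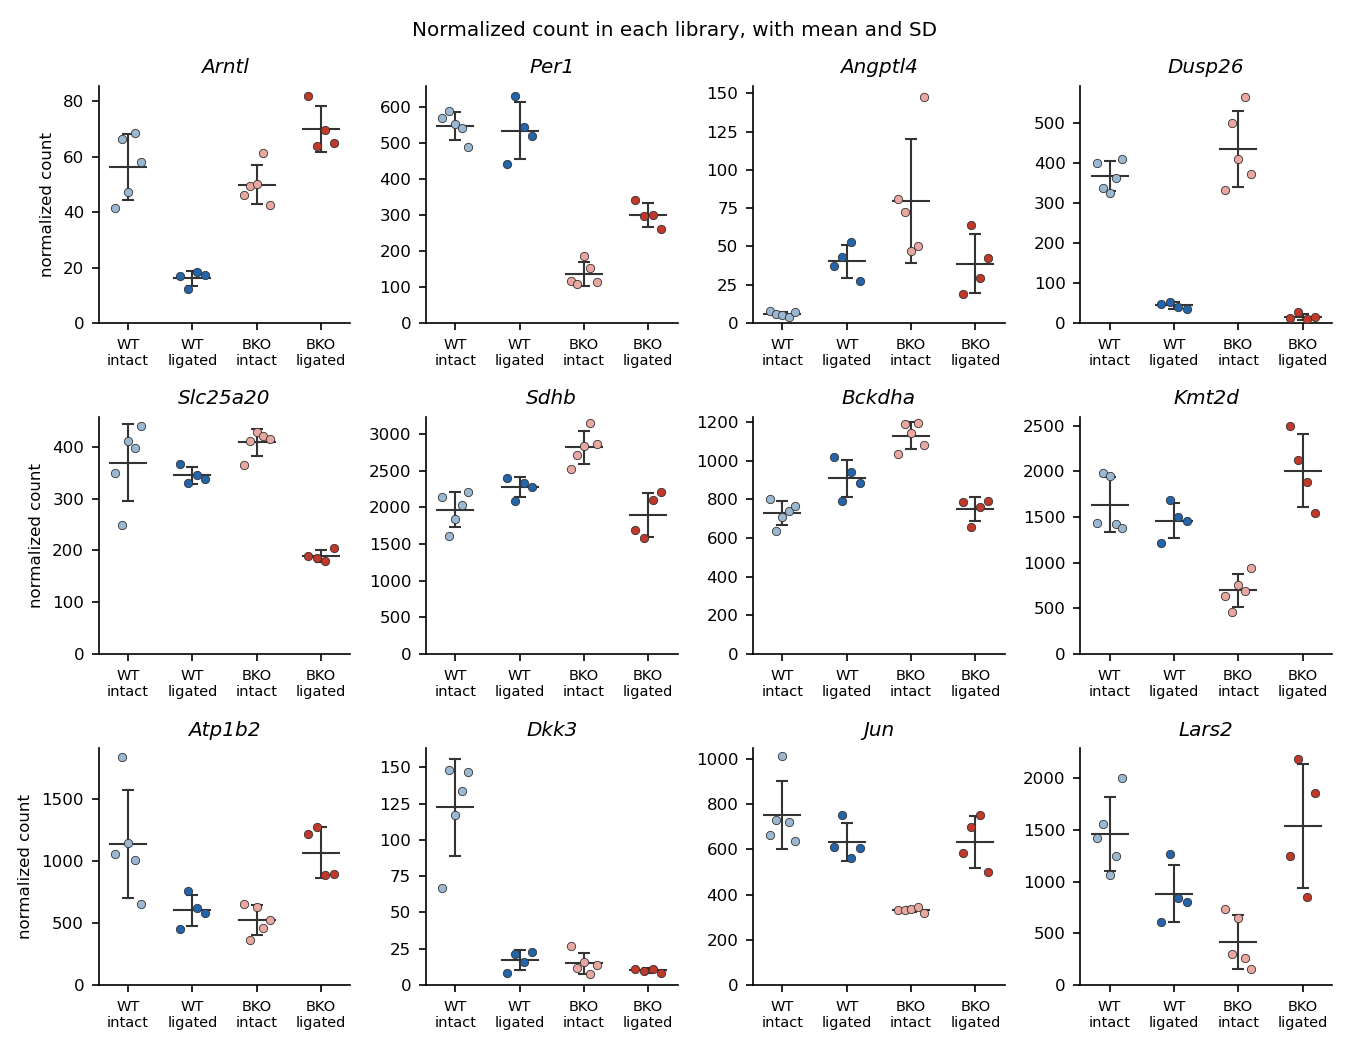
Normalized count in each library (points) for 12 genes in the 4 groups, with the group mean (bar) and SD (whiskers). Arntl is low in WT ligated limbs, Dkk3 is high in WT intact limbs, Kmt2d and Jun are low in BKO intact limbs, and Slc25a20 is low in BKO ligated limbs.

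Fatty acid oxidation genes mostly fell with ligation in BKO, and in WT they passed in both directions. Of 20 measured members, 13 had a negative interaction and none a positive one, with a median of -0.66, and 7 passed without the 2 libraries richest in mt-Rnr2. In BKO 16 of the 20 fell with ligation and 1 rose. In WT 3 fell and 4 rose. Over all genes tested, 25.1% fell in BKO and 39.8% passed in either direction in WT. In intact limbs 14 were higher in BKO than in WT. Slc25a20, the carrier that brings acylcarnitine into the mitochondrion, held 348, 249.9, 412, 398 and 439.5 in WT intact and 367, 329.5, 345 and 337 in WT ligated limbs. In BKO it held 365, 412, 428, 421 and 415 in intact and 189, 185, 179 and 205 in ligated limbs, and those 4 values were the lowest of the 18. Its interaction was -1.03 ± 0.17 (adjusted p = 0.00229). Acads, the short-chain acyl-CoA dehydrogenase, fell by 0.67 in BKO and was at 0.10 in WT, with an interaction of -0.77 ± 0.14. Acaa2, the mitochondrial thiolase, rose in WT by 0.44 and fell in BKO by 0.61. Echs1, the enoyl-CoA hydratase, rose in WT by 0.51 and was at -0.15 in BKO (adjusted p = 0.155).

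Nuclear-encoded subunits of the respiratory chain were mostly higher in BKO than in WT in intact limbs, and few passed between genotypes in ligated limbs. For complexes II to V, 41 of 45 subunits were higher in BKO in intact limbs and none lower, and 2 were higher and 3 lower in ligated limbs. With ligation, 23 rose and 5 fell in WT, while 7 rose and 16 fell in BKO. The interaction was negative in 24 of the 45 and positive in none, with a median of -0.46. Sdhb, the iron-sulfur subunit of succinate dehydrogenase, held 2147, 1611, 1848, 2032 and 2212 in WT intact and 2400.3, 2084, 2333 and 2279 in WT ligated limbs. It held 2529, 2715, 2834, 3155 and 2858 in BKO intact limbs, more than in any other library, and 1697, 1582, 2096 and 2213 in BKO ligated limbs. Its interaction was -0.80 ± 0.15 (adjusted p = 0.0045). Cox6a1, a subunit of cytochrome c oxidase, and Atp5l and Atp5mpl, of ATP synthase, rose with ligation in WT by 0.93, 0.86 and 0.51. In BKO the same 3 genes were at 0.04, -0.02 and -0.09, and none passed there. Complex I gave 14 negative interactions among 37 subunits, none positive, and a median of -0.36, with all 37 values below 0. In intact limbs 33 of the 37 were higher in BKO, and in ligated limbs 2 were. Ndufs8, Ndufa7, Ndufs3 and Ndufv3 had interactions of -0.62 ± 0.13, -0.63 ± 0.15, -0.54 ± 0.13 and -0.45 ± 0.11.

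These counts were sensitive to single libraries and to the 2 rich in mt-Rnr2. Without those 2, 5 subunits of complexes II to V and 2 of complex I passed, with medians of -0.40 and -0.34. Leaving out WT ligated library 2 or 5 or BKO ligated library 4 gave 14 for complexes II to V in each case. For complex I the count was 5 to 9 on leaving out WT intact 3 or 4, BKO intact 2, 3 or 4, WT ligated 2, 5 or 6 or BKO ligated 4. For fatty acid oxidation it stayed between 12 and 16 whichever library was left out.

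The windows of Echs1 and Sdhb are shown as examples of oxidative genes with AGGTCA, in capitals, picked after their values were seen.
Echs1, chr7:140116372-140116671, minus strand: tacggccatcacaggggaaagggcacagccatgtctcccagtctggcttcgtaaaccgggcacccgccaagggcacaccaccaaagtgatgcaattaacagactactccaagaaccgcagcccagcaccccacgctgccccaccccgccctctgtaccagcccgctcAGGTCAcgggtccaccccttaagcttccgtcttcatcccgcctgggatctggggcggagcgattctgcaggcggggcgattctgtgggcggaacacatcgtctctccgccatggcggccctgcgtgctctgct
Sdhb, chr4:140961021-140961320, plus strand: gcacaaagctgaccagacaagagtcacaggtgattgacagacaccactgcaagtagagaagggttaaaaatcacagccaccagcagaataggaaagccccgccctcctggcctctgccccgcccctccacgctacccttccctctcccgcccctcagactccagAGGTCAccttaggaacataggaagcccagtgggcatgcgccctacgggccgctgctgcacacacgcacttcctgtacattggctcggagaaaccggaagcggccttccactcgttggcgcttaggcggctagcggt
Both carry the motif upstream of the start on the gene's own strand.

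Enzymes that feed the respiratory chain also had negative interactions, in smaller numbers. Of 14 tricarboxylic acid cycle enzymes 4 had a negative interaction and none a positive one (median -0.34), and 1 passed without the 2 libraries. Suclg2, the GTP-forming subunit of succinyl-CoA ligase, had -0.74 ± 0.13, and Idh2, Idh3a and Sucla2 had -0.76 ± 0.20, -0.40 ± 0.11 and -0.36 ± 0.10. Without the 2 libraries 0 of 12 genes of the pyruvate dehydrogenase complex, its kinases and phosphatases and the pyruvate carrier passed in limma. In that fit 6 had an unadjusted p under 0.05, a count with no share over all genes beside it. With all libraries 4 of the 12 were negative (median -0.47). The 4 were Pdhx, a structural subunit, Pdp1, the phosphatase that activates the complex, and the pyruvate carrier subunits Mpc1 and Mpc2. The count for the cycle was 1 or 2 on leaving out WT intact 3 or 4, BKO intact 2, 3 or 4, WT ligated 2, 5 or 6 or BKO ligated 4, and 7 without WT ligated library 4. The count for pyruvate was 1 or 2 on leaving out WT intact 3, BKO intact 2, WT ligated 2, 5 or 6 or BKO ligated 4 or 5. Mitochondrial ribosomal proteins had 13 negative interactions of 76 and none positive (median -0.31), with 4 without the 2 libraries, and 6 and 7 without WT ligated library 2 and without BKO ligated library 4. With ligation, 4 of the 76 rose and 17 fell in WT, while none rose and 45 fell in BKO. Mrps36, Mrps27, Mrpl37 and Mrps33 had interactions of -0.72 ± 0.15, -0.61 ± 0.13, -0.70 ± 0.16 and -0.74 ± 0.16.

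Breakdown of branched-chain amino acids gave 8 negative and 1 positive interaction among 17 genes (median -0.47), 7 negative and 0 positive without the 2 libraries, and 7 to 9 negative whichever library was left out. Bckdha, the E1 alpha subunit of the branched-chain ketoacid dehydrogenase, held 803, 636, 708, 741 and 765 in WT intact and 1016, 791, 942 and 882 in WT ligated limbs. It held 1033, 1188, 1141, 1194 and 1082 in BKO intact and 786, 658, 759 and 790.2 in BKO ligated limbs. The BKO intact values were the highest of the 18, and the interaction was -0.90 ± 0.12 (adjusted p = 0.000479). Dbt, the E2 subunit, fell by 0.31 in WT and was at -1.20 in BKO, where it also fell, and Bckdk, the kinase that inhibits the complex, rose by 0.31 in WT and fell by 0.45 in BKO. Mut, methylmalonyl-CoA mutase, fell in BKO by 0.55 and was at -0.02 in WT.

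**Figure D4:**
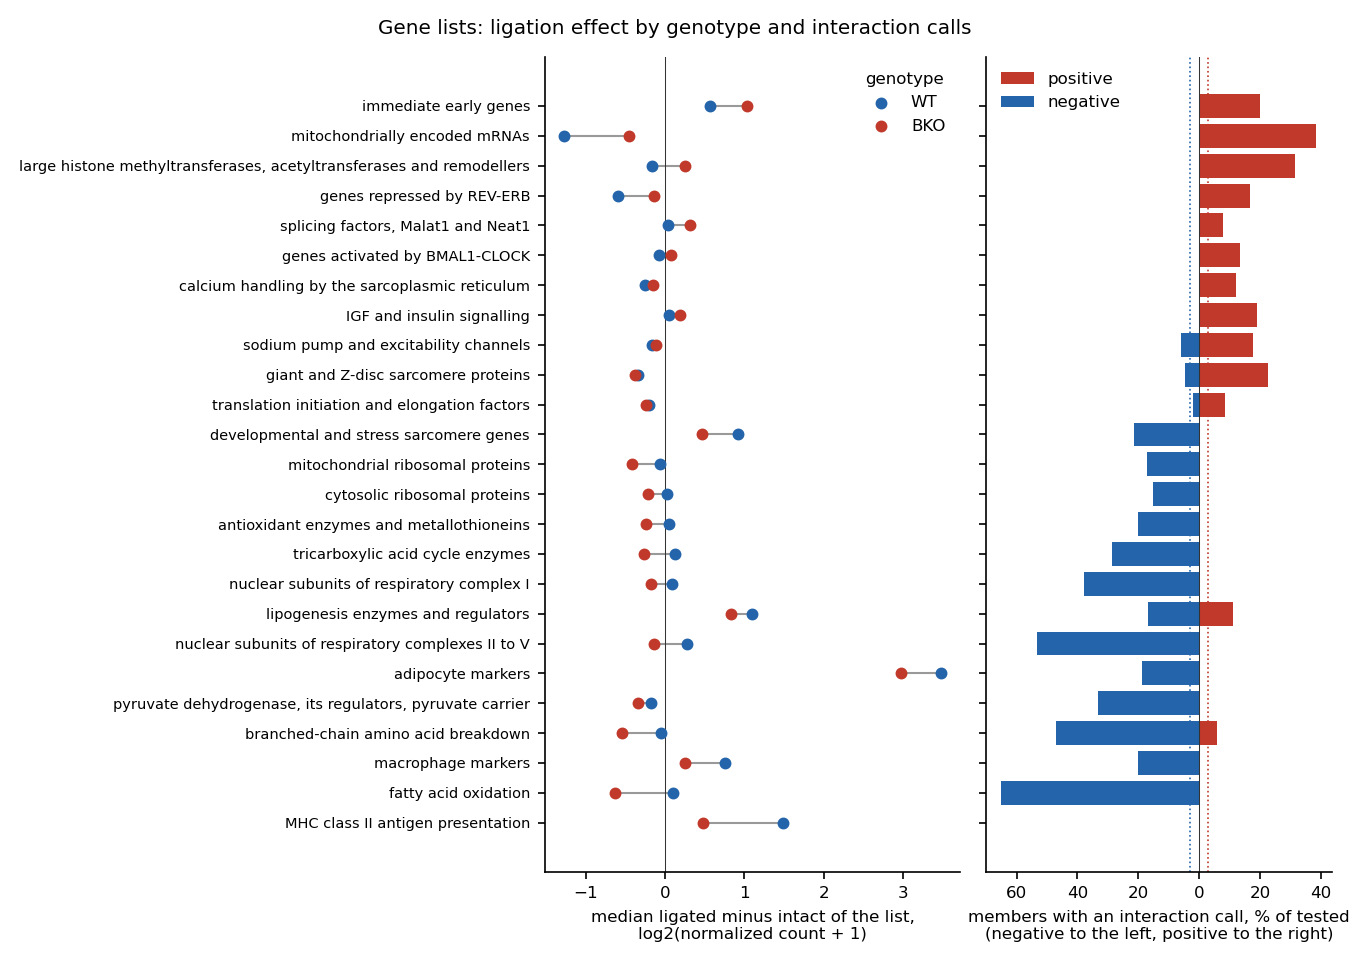
Left, the median ligated minus intact difference of each described gene list (log2(normalized count + 1)) in WT and in BKO. Right, the percent of its tested members with a positive or negative interaction, with dotted lines at the shares over all genes tested, 3.04% and 2.97%; fatty acid oxidation and complexes II to V reach furthest to the negative side and mitochondrially encoded mRNAs to the positive side.

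Messenger RNAs encoded in the mitochondrial genome had interactions of the other sign from the nuclear subunits. Of 13, 5 had a positive interaction, none a negative one, and the median was 0.49. With ligation 1 of the 13 rose and 9 fell in WT, while 3 rose and 7 fell in BKO. mt-Nd5, a complex I subunit, held 167380.0, 190805, 159811, 123438 and 149423 in WT intact and 49123, 85769, 63661 and 64530.4 in WT ligated limbs. It held 75147, 62589, 71928, 94239.6 and 96476 in BKO intact and 88862, 86289, 104022 and 63587 in BKO ligated limbs. WT intact libraries lay above all others, and the interaction was 1.37 ± 0.24 (adjusted p = 0.00273). mt-Nd2, mt-Nd4 and mt-Nd6 had 0.97 ± 0.20, 0.99 ± 0.20 and 0.95 ± 0.23. Without the 2 libraries richest in mt-Rnr2, 2 of the 13 passed, and the median was 0.29. Mitochondrial mRNAs as a whole took 9.35% of reads in WT intact and 7.77% in BKO intact limbs (exact two-sided permutation p = 0.0159) and 4.57% in WT ligated and 3.92% in BKO ligated limbs (exact p = 0.0286, the smallest that 4 against 4 allows). This share was lower in BKO in both limbs and fell with ligation in both genotypes, so it does not by itself show a different ligation effect. Reads of mitochondrial genes can be split with near-identical copies in the nuclear genome, and the sources used here do not say how the counting treated them. mt-Co2 is listed at 0 in every WT intact library and has a mean of 296 in WT ligated limbs, so no change is read for it. It is 1 of the 13, so the counts and median of this list include it.

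Large regulators of chromatin formed a positive group. Of 38 genes for histone methyltransferases, acetyltransferases, remodellers and their partners, 12 had a positive interaction and none a negative one, and all 38 values lay above 0, with a median of 0.43. In intact limbs 15 of the 38 were lower in BKO than in WT and none was higher, and in ligated limbs none passed in either direction. With ligation 16 rose and 2 fell in BKO, while 13 fell and none rose in WT. Kmt2d, a histone H3 lysine 4 methyltransferase, held 1434, 1983, 1955, 1429 and 1383 in WT intact and 1212, 1684, 1500.0 and 1452 in WT ligated limbs. It held 631, 458, 757, 689.9 and 945 in BKO intact limbs, below every other library, and 2495, 2127, 1879 and 1541 in BKO ligated limbs (interaction 1.70 ± 0.24, adjusted p = 0.000933). Crebbp, an acetyltransferase, had 0.62 ± 0.15. Without the 2 libraries 4 of the 38 passed, with a median of 0.40. The count was 5 to 7 on leaving out WT intact 3 or 4, BKO intact 2, WT ligated 2, 5 or 6, or BKO ligated 2.

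A list of splicing factors, RNA-binding proteins and the nuclear RNAs Malat1 and Neat1 had 3 positive interactions of 38 and none negative (median 0.27). The 3 were Son and Srrm2, large proteins of nuclear speckles, and the non-coding Neat1. They had 0.54 ± 0.12, 0.72 ± 0.18 and 0.95 ± 0.27. None passed in limma without the 2 libraries, where 4 had an unadjusted p under 0.05, a count with no share over all genes beside it. The count was 1 without WT ligated library 2, 7 without WT ligated library 4 and 8 without BKO ligated library 6. Of 33 small nuclear RNA genes tested, 8 were positive and 0 negative. Rnu12, the U12 RNA of the minor spliceosome, had 1.64 ± 0.40 and 1.17 without the 2 libraries (adjusted p = 0.147). Small nuclear RNA genes have many near-identical copies, so their values are uncertain.

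Lars2, the mitochondrial leucyl-tRNA synthetase, came next to Tmem132b among the genes named by size. It held 1423, 1563, 1064, 1252 and 2009 in WT intact and 610.0, 1269, 846 and 809 in WT ligated limbs, and 736, 296, 648, 257 and 151 in BKO intact and 1248, 2193, 857 and 1862 in BKO ligated limbs. The 4 groups spread widely, with all BKO intact values below all WT intact values, and the interaction was 2.77 ± 0.51 (adjusted p = 0.00466). Gm42418, a gene that overlaps the locus of ribosomal RNA and was looked up after the values of Lars2 were seen, had an interaction of 1.69 ± 0.37 (adjusted p = 0.013), with means of 3941 in WT intact, 5047 in WT ligated, 2475 in BKO intact and 9267 in BKO ligated limbs. Positive interaction genes had longer transcripts, with a median of 1958.5 nt against 1437 nt over all genes tested and 946 nt in negative genes. Their median GC content was 51.9%, against 50.5% over all and 51.8% in negative genes. Across the 12188 genes with an annotated transcript, which are not independent replicates, the interaction and transcript length had a Spearman rho of 0.168, and for BKO minus WT in intact limbs it was -0.142. What part residual ribosomal RNA or transcript length has in these results was not tested.

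Immediate early genes had 4 positive interactions of 20 tested, none negative, and a median of 0.67. In intact limbs 10 were lower in BKO than in WT and 2 higher. Jun, a subunit of AP-1, held 666, 729.6, 1014, 720.5 and 638 in WT intact and 611, 754, 561 and 605 in WT ligated limbs. It held 333, 334, 337, 347 and 317 in BKO intact limbs, below every other library, and 586, 699, 754 and 498 in BKO ligated limbs, with an interaction of 1.15 ± 0.18 (adjusted p = 0.00187). Fos, its partner, rose in both genotypes. Its values were 16.8, 30.8, 16.8, 25 and 21.1 in WT intact, 174, 212, 83.6 and 213 in WT ligated, 17.8, 22.1, 26.6, 29.3 and 33.9 in BKO intact and 449.7, 544, 521 and 375 in BKO ligated limbs. Intact limbs overlapped, and all BKO ligated values lay above all WT ligated values (interaction 1.31 ± 0.35, adjusted p = 0.0313). The Kruppel-like factors Klf2 and Klf6 had 0.93 ± 0.27 and 0.49 ± 0.12. Without the 2 libraries 2 of the 20 passed, and the count was 1 or 2 without BKO intact library 1 or 2, WT ligated library 5 or 6 or BKO ligated library 4.

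**Figure D5:**
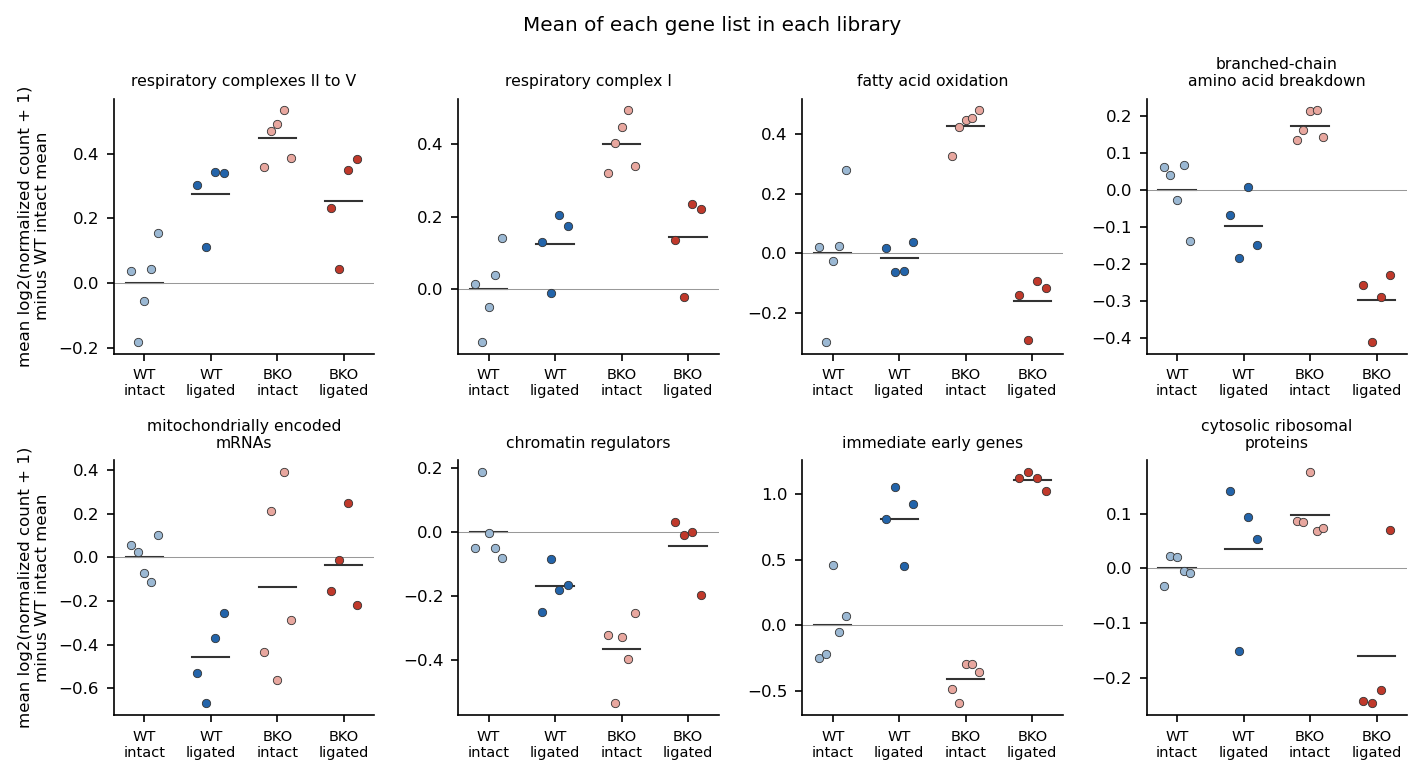
Mean over the members of 8 gene lists in each library, on the log2(normalized count + 1) scale, as the difference from the WT intact mean; bars are group means. Respiratory subunits and fatty acid oxidation genes are highest in BKO intact limbs, and chromatin regulators and immediate early genes are lowest there. The mean of mitochondrially encoded mRNAs includes mt-Co2, for which no change is read.

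Among 22 giant and Z-disc sarcomere proteins 5 were positive and 1 negative, with a median of 0.04. Tcap (telethonin), which caps titin at the Z-disc, was the negative member. It held 12516, 11566, 11743, 12839 and 12871 in WT intact, 13920.5, 13924, 14044 and 14069 in WT ligated, 5918, 6834, 6583, 6261 and 5744 in BKO intact and 3311, 5080.2, 3745 and 3243 in BKO ligated limbs. No groups overlapped, and BKO ligated limbs were lowest (interaction -0.91 ± 0.14, adjusted p = 0.00147). Smtnl2, a smoothelin-like protein, fell by 0.91 in WT and was at -0.05 in BKO. Synpo2l rose in BKO by 0.51 and passed no test in WT. Of 14 developmental and stress sarcomere genes 3 were negative, namely Actc1, Mybph and Cryab, the small heat shock protein alpha-B crystallin, at -0.97 ± 0.25, and 1 passed without the 2 libraries. The stress gene Ankrd1 had -0.77 ± 0.41 (adjusted p = 0.281). Fast fibre genes had 1 positive interaction of 15 and slow fibre genes 1 negative of 12, with medians of 0.04 and 0.40.

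Of 25 genes for calcium handling 3 were positive and none negative (5 and none without the 2 libraries). Ryr1, the calcium release channel, held 35636, 55811, 42684, 38756 and 32899.5 in WT intact and 39085, 39620.5, 46963 and 44508 in WT ligated limbs. It held 22879, 18595, 27924, 17849 and 26147 in BKO intact limbs, below every other library, and 60274, 46739, 40166 and 42775 in BKO ligated limbs (interaction 1.00 ± 0.22, adjusted p = 0.011). Fkbp1a, the channel's stabilising subunit, and Jph2, which holds the triad together, had 0.94 ± 0.19 and 0.54 ± 0.16. Of 17 sodium pump and channel genes 3 were positive and 1 negative (2 and none without the 2 libraries). Atp1b2, a beta subunit of the sodium pump, held 1053, 1833, 1139, 1003 and 648 in WT intact and 453, 755, 618 and 581 in WT ligated limbs. In BKO it held 652, 359, 629, 457 and 523 in intact and 1215, 1275, 882 and 892 in ligated limbs. It fell in WT by 0.86 and rose in BKO by 1.04, with no overlap between the BKO limbs. The potassium channels Kcnn3 and Kcnc1 had 1.09 ± 0.29 and 0.71 ± 0.19, and the water channel Aqp4 had -1.06 ± 0.24. Of 21 IGF and insulin signalling genes 4 were positive, with Insr, the insulin receptor, at 0.45 ± 0.10, Irs1 at 0.59 ± 0.17, Gsk3b at 0.43 ± 0.12 and the growth factor Igf2 at 1.06 ± 0.31. Without the 2 libraries 2 were positive and 1 negative, with a median of 0.01. That count was 1 or 2 on leaving out WT intact 3 or 4, BKO intact 2, 4 or 5, WT ligated 2, 4, 5 or 6 or BKO ligated 2. The positive sodium pump and channel count was 1 on leaving out WT intact 3, BKO intact 1 or 2, WT ligated 5 or BKO ligated 2.

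Adipocyte markers rose with ligation in both genotypes, in 15 of 16 genes in WT and in 13 in BKO. Of 16 adipocyte markers tested 3 had a negative interaction (median -0.46), and 4 without the 2 libraries. The summed level of the markers was 15195 to 19504 in WT ligated and 8889 to 14947 in BKO ligated limbs. Lpl, lipoprotein lipase, the target of the Angptl4 protein, held 2551, 1418, 1853, 1887 and 2432 in WT intact and 2916, 3522, 2717 and 2815 in WT ligated limbs. It held 1810.2, 2130.1, 2460.4, 2815 and 2327 in BKO intact and 1831, 1938, 2084 and 1576 in BKO ligated limbs, so that all WT ligated values lay above all BKO ligated values (interaction -0.89 ± 0.21, adjusted p = 0.0155). Lipe, hormone-sensitive lipase, and Plin4, a lipid droplet protein, had -1.16 ± 0.29 and -0.65 ± 0.17. The fatty acid transporter Cd36 had -0.61 ± 0.19 (adjusted p = 0.0593). Adipoq, a defining marker of adipocytes, had -0.13 ± 0.77 (adjusted p = 0.941). Among 18 lipogenesis genes 3 were negative and 2 positive, with 1 of each without the 2 libraries and 1 positive without WT ligated library 5 or 6 or BKO ligated library 2. Dgat2, which makes triglyceride, held 108, 75.8, 109, 125 and 175 in WT intact and 517, 576, 521 and 375 in WT ligated limbs, and 72.9, 84.3, 115, 85.4 and 89 in BKO intact and 201, 188, 179 and 113 in BKO ligated limbs. Its interaction was -1.19 ± 0.29 (adjusted p = 0.0184), while Scd2 had -0.54 ± 0.14 and the transcription factor Mlxipl (ChREBP) had 0.84 ± 0.15. Without WT ligated library 5, 1 adipocyte marker passed.

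Of 15 macrophage markers tested, 8 rose with ligation in WT and 2 in BKO, 3 had a negative interaction (median -0.57) and 13 of the 15 values lay below 0. Lyz2, lysozyme of myeloid cells, held 152, 165, 166, 170.5 and 155 in WT intact, 513, 448, 494 and 411 in WT ligated, 172, 206, 118, 167 and 302 in BKO intact and 221, 341, 208 and 350.3 in BKO ligated limbs. All WT ligated values were above all BKO ligated values (interaction -0.96 ± 0.28, adjusted p = 0.0423). Itgam (CD11b) had -2.09 ± 0.58, and Csf1r, the receptor for colony stimulating factor, had -0.81 ± 0.29 (adjusted p = 0.0941). The 3 that passed were Lgals3, Itgam and Lyz2. Lgals3 had the lowest value of the list, -2.41, and was higher in BKO than in WT in intact limbs. None of the 15 passed in limma without the 2 libraries, where 4 had an unadjusted p under 0.05. That count has no share over all genes beside it. The count was 1 on leaving out WT intact 2, 3 or 4, BKO intact 1 or 4, WT ligated 2 or 5 or BKO ligated 2 or 5, and 5 without BKO intact library 3. Where it was 1, the gene was Lgals3, which passed in every fit with 1 library left out. The summed level of macrophage markers was 892 to 1080 in WT intact, 1434.5 to 1734 in WT ligated, 808 to 1252 in BKO intact and 948 to 1316 in BKO ligated limbs. MHC class II genes had 6 of 7 members that rose in WT and 1 in BKO, and 0 of 7 passed for the interaction in limma, edgeR or DESeq2 (median -0.88), with 3 at an unadjusted p under 0.05 in each. Cd74, H2-Aa, H2-Eb1 and H2-Ab1 had -0.88 ± 0.36, -1.16 ± 0.41, -0.99 ± 0.42 and -0.66 ± 0.40. At an unadjusted p under 0.05 the interaction passed for 2658 of all genes tested in the fit to all 18 libraries.

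Cytosolic ribosomal proteins had 12 negative interactions of 79 and none positive, with a median of -0.31. None passed in limma without the 2 libraries, where 21 had an unadjusted p under 0.05, a count with no share over all genes beside it. The count was 1 to 7 on leaving out WT intact 3 or 4, BKO intact 2, 3 or 4, WT ligated 2, 5 or 6 or BKO ligated 2, 4 or 5. It was 27 without WT ligated library 4 and 36 without BKO ligated library 6. With ligation 23 of the 79 rose and 18 fell in WT, while 8 rose and 37 fell in BKO. Rps29, Rps26, Rps15 and Rplp0 had -0.61 ± 0.14, -0.55 ± 0.14, -0.42 ± 0.11 and -0.39 ± 0.10. Many ribosomal protein genes have processed pseudogenes, which can share their reads. Of 48 translation factors 4 were positive and 1 negative, with 2 positive without WT ligated library 2. Eif1, which helps choose the start codon, held 1039, 2178, 1807, 1291 and 1220.3 in WT intact, 1099, 1781, 1401 and 1450.1 in WT ligated, 612, 625, 772, 719 and 844 in BKO intact and 1794, 1681, 1807 and 1515 in BKO ligated limbs. BKO intact values were the lowest of the 18 (interaction 1.3 ± 0.24, adjusted p = 0.00498). The scaffold proteins Eif4g3 and Eif4g2 had 0.94 ± 0.15 and 0.39 ± 0.10, and the cap-binding protein Eif4e3 had -0.63 ± 0.14.

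Antioxidant genes had 5 negative interactions of 25 and none positive (median -0.33), and 1 passed without the 2 libraries. Prdx6, a peroxiredoxin, held 312, 272, 260.2, 315 and 347 in WT intact and 412, 358, 420.5 and 369 in WT ligated limbs, and 365, 332, 320.0, 337 and 305 in BKO intact and 249.9, 166, 235 and 225 in BKO ligated limbs. It rose in WT and fell in BKO, with no overlap between the limbs of either genotype (interaction -0.99 ± 0.16, adjusted p = 0.00198). Cat (catalase), Prdx3 and Sod2, the mitochondrial superoxide dismutase, had -0.67 ± 0.19, -0.53 ± 0.15 and -0.44 ± 0.12. The antioxidant count was 1 to 3 on leaving out WT intact 3, 4 or 5, BKO intact 2, 3 or 4, WT ligated 2, 5 or 6 or BKO ligated 4 or 5.

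Classes tied to blood supply and scarring gave few interactions. Endothelial markers rose with ligation in 16 of 20 genes in WT and in 17 in BKO, and 0 of 20 passed for the interaction in limma, edgeR or DESeq2, also at an unadjusted p under 0.05, with a median of 0.03 and values from -0.41 to 0.39. Of 19 angiogenic genes Angptl4 was the 1 that passed. Collagen chains rose in 20 of 33 genes in WT and in 22 in BKO, with 1 negative interaction, Col23a1, and a median of 0.00. Hypoxia response genes had 1 negative interaction of 21, glycolytic enzymes 1 negative of 15, and interferon-stimulated genes 0 of 21 in limma, with 3 at an unadjusted p under 0.05, 1 called by edgeR and 2 by DESeq2. A count near the background does not show that these classes respond alike in the 2 genotypes.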

How the data were processed

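RNA from the tibialis anterior was extracted with TRIzol and a Direct-zol column and made into stranded total RNA libraries (TruSeq), per the labels' protocols. The submitters' processing notes name Trimmomatic 0.33, STAR 2.5.2, RSEM 1.3.3, DESeq2 and the mm10 build, without their order. The deposited table holds the authors' normalized signal per gene and library (counts divided by a size factor), and its steps gave back whole reads for 100.0% of values (tolerance 0.001), with a depth of 14.1 to 25.6 M reads per library. Of its 20922 genes, 20643 had a symbol.

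Genes with a mean of at least 10 over the 18 libraries were tested on log2(value + 1), which understates changes of low genes. A mean per group (4 groups) was fitted in limma 3.58.1 (R 4.3.3) with an intensity trend, and p-values were adjusted by Benjamini-Hochberg over all 12262 genes at 0.05. Every adjusted p printed is from this fit, or from limma without the 2 libraries named where the text says so. The script was tested on simulated data. Shares of reads were compared by exact permutation tests. The labels do not say that libraries of a group came from separate animals, so the tests weigh effects only against the variation among these libraries. Intact and ligated libraries that share a number did not deviate together, which does not show whether they came from the same mouse.

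The genes named are Arntl, the 15 largest interactions in each direction that passed in all 18 fits with 1 library left out and had a group mean of at least 50 (predicted genes left out), and the 4 members of lowest p in each list described. A few genes that this rule picks are not reported here. The members and lists were chosen with earlier results of these data known. Promoter windows came from RefSeq (GRCm38.p6) and coordinates from GENCODE on GRCm38. Alternatives were pseudocounts of 0.5 and 5, no filter and a mean of at least 50, no trend, library weights, 2 rescalings, the replicate number as a block, edgeR 4.0.16 and DESeq2 1.42.0 on the recovered reads, and each library left out. The fit without 2 BKO ligated libraries was added after the data were seen.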

Additional observations from a re-analysis of the deposited data

Results flagged for a closer look

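The ligation effect differed between the genotypes in 737 genes, by limma's test of the difference itself.

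Of the 484 groups of 4 or 5 libraries checked, 23 held a library far from the others by Dixon's criterion, and chance flags about 1 in 20. All of the flagged groups were for named genes. In WT intact limbs, Eif4g3 was at 2012 and Ndufa7 at 334 in library 3, Jun at 1014 and Enho at 61.1 in library 4, and Itgam at 27.9 in library 5. In WT ligated limbs, library 4 stood apart for Mlxipl (382), Mpc2 (1066) and Son (2869). In BKO intact limbs, library 5 was high for the MHC class II genes Cd74 (655), H2-Aa (337) and H2-Eb1 (254) and for Son (3087), and low for Trarg1 (8.48). The other BKO intact libraries reached 303, 121 and 101 for the 3 MHC class II genes. Cryab was at 3726 in BKO intact library 4, Igf2 at 172 in library 3 and Slc25a20 at 365 in library 1. In BKO ligated limbs, library 6 stood apart for Fras1 (106), H2-Eb1 (186) and Map1a (184), and library 2 for Atp13a5 (14.99) and Smtnl2 (2821). Klf2 was at 125 in BKO ligated library 4 and Mlxipl at 454 in library 5.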

How the results depend on the processing

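The 737 interaction calls (373 positive, 364 negative) became 382 with the replicate number as a fixed block (230 positive, 152 negative), which uses up degrees of freedom, and 812 with the block as an estimated correlation of 0.0378. Same-numbered libraries had residual correlations of -0.0638 to 0.0478, and the main fit did not treat them as pairs. Such values cannot tell whether 2 libraries came from the same mouse. Calls numbered 450 without the intensity trend (236 and 214), 1194 with DESeq2 (604 and 590) and 269 without the 2 BKO ligated libraries richest in mt-Rnr2 (170 and 99). With 1 library left out they ran from 402 (without WT ligated library 2) to 1015 (without BKO ligated library 6), the positive ones from 215 to 474 and the negative ones from 187 to 541. They were 461 without WT ligated library 5, and the negative ones 199 without it and 222 without BKO ligated library 4. Upper quartile rescaling gave 823 calls, 43.4% of them positive, and the fixed block 60.2%. The other settings gave 579 to 1003. The cause of these shifts was not tested. Of the 119 named genes, 119 stayed on their side of the threshold with TMM, 116 with edgeR, 83 with the fixed block and 68 without the 2 libraries. Leaving out 1 library moved the median of giant and Z-disc sarcomere genes between -0.0187 and 0.0915, of sodium pump and channel genes between -0.0333 and 0.134, and of IGF and insulin genes between -0.0024 and 0.154. Medians of these 3 lists therefore have no settled sign. Groups of 4 and 5 libraries limit precision for genes with few reads.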

Other observations

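The genes below were picked after their values were seen, so they are descriptions. Sorbs2, a scaffold protein of the Z-disc, had an interaction of 1.36 ± 0.15 (limma adjusted p = 8.74e-05), with means of 1255 in WT intact, 280.3 in WT ligated, 314 in BKO intact and 179 in BKO ligated limbs. WT intact limbs stood highest. Ccnk, cyclin K, and Adamts1, a secreted protease, had 1.34 ± 0.18 and 1.36 ± 0.19, and both were lower in BKO than in WT in intact limbs. Hr, a nuclear corepressor, had 1.04 ± 0.16 and was highest in BKO ligated limbs, at a mean of 931 against 370.4 in WT ligated limbs.

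On the negative side, Fdft1, squalene synthase of the cholesterol pathway, had -1.20 ± 0.15 (limma adjusted p = 0.000196), with means of 519 in WT intact, 369.6 in WT ligated, 594 in BKO intact and 184 in BKO ligated limbs. It fell with ligation in both genotypes and further in BKO. Selenop, which carries selenium, and Ephx2, soluble epoxide hydrolase, had -0.72 ± 0.11 and -0.90 ± 0.14. All of these genes passed in each of the 18 fits with 1 library left out.

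The largest positive value of all belonged to a predicted gene, Gm26244, at 8.17 ± 2.02 (adjusted p = 0.0206), with means of 625 in WT intact and 0.339 in WT ligated limbs. Its fitted value depends on the pseudocount.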
